A study of Homo sapiens and Mus musculus with 92 samples.

Results

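The genes described here encode menin, LEDGF and the subunits that COMPASS-like histone H3 lysine 4 methyltransferase complexes share or are named for. They are *MEN1*, *PSIP1*, *WDR5*, *RBBP5*, *ASH2L*, *DPY30*, *HCFC1*, *HCFC2*, *KDM6A* and *PAXIP1*, taken by gene symbol. The choice was made with earlier results of these data known. All 10 were found among the 28103 gene symbols of the deposited RNA-seq count tables, and all 10 passed the filter on low values in both tables. The cells were HEL, an established human erythroleukemia line that the labels call erythroblasts. In one experiment, 3 control and 3 MLL1 knockdown (KD) libraries were compared, and in the other, 2 control and 2 AF9 KD libraries. MLL1 is the product of *KMT2A* and AF9 the product of *MLLT3*. Both controls carry wild-type labels, and by the study's methods control cells received a lentiviral control shRNA while KD cells received 1 shRNA to the target, so each KD rests on a single shRNA in a transduced pool and not on clones. The labels do not say whether replicates were separate cultures, so the p-values measure only the spread between these libraries, which may be technical.

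An MLL family enzyme is nearly inactive alone and works with WDR5, RBBP5, ASH2L and DPY30, which bind next to its SET domain and stimulate methylation. Menin, the product of a tumor suppressor gene, binds the N terminus of MLL1 and MLL2, and LEDGF, the product of *PSIP1*, binds the menin-MLL1 surface and reads methylated H3 lysine 36 in transcribed chromatin. HCF-1 and HCF-2, the products of *HCFC1* and *HCFC2*, are cofactors that bind promoter factors. KDM6A (UTX), an H3 lysine 27 demethylase, and PAXIP1 (PTIP), a protein with BRCT domains, belong to the MLL3 and MLL4 complexes. The menin-MLL1 contact is a drug target in leukemia with MLL rearrangements.

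The shRNA target sites are shown because they define the perturbation. Both are in coding exons of hg38. The MLL1 site lies in exon 3 of the 36 exons of the canonical *KMT2A* transcript on the plus strand, at chr11:118474149-118474169, and the AF9 site lies in exon 5 of 11 of *MLLT3* on the minus strand, at chr9:20414247-20414267. In capitals is the whole site, 5′ to 3′ in the sense of the transcript:
MLL1 shRNA #1 target: GCACTGTTAAACATTCCACTT
AF9 shRNA #1 target: TTCAAAGCCTCACAAATTAAT
No annotated transcript of the 10 genes held either site as an exact match (0 of 10 for each). The AF9 site matched 1 gene, *MLLT3*, and the MLL1 site matched 2 gene models, *KMT2A* and the overlapping ENSG00000285827.

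Promoters are shown for 3 genes on which the results turn, *MEN1* and *WDR5*, which rose in AF9 KD cells, and *HCFC2*, the gene with the largest fold change of the 10 in MLL1 KD cells. The sequences come from RefSeq, build GRCh38.p14, and run from 250 bases before to 50 after an annotated start, on the gene's strand. Promoters of 6 of the 10 genes were matched by symbol, and *HCFC1*, *ASH2L*, *DPY30* and *PAXIP1* had no entry. Capitals mark matches on either strand to GGGCGG (or CCGCCC), the GC box, or to AAGATGGC (or GCCATCTT), a core bound by YY1, and no marked matches overlap in these windows:
*MEN1* start 1 of 2, chr11:64810502-64810801, minus strand: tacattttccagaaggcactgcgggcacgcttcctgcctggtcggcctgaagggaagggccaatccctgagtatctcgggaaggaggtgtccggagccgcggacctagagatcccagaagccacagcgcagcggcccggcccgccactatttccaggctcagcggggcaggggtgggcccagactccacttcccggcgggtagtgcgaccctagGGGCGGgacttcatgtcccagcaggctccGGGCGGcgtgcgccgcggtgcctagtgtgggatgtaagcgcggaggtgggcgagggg
*WDR5* start 3 of 4, chr9:134135832-134136131, plus strand: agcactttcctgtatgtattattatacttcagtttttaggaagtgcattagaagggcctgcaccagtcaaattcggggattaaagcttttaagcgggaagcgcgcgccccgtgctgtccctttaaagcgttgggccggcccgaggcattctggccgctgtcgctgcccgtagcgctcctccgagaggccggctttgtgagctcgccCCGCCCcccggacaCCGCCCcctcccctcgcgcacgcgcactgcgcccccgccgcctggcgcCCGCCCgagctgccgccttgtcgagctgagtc
*HCFC2*, chr12:104064281-104064580, plus strand: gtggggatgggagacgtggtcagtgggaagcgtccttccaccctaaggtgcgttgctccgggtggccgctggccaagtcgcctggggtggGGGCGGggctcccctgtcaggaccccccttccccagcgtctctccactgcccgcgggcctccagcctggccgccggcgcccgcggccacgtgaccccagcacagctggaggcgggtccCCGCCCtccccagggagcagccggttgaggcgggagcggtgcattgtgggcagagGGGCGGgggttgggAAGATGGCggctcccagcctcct
The GC box occurred 2 times in the *MEN1* window, 3 times in that of *WDR5* and 3 times in that of *HCFC2*, and 45% of all 35116 promoters of this length held at least 1. The YY1 core occurred once in the *HCFC2* window and in 2.89% of all promoters. None of the 3 windows held TATAAA, the TATA box, which 11.5% of promoters held, or ACTACA, part of the site of ZNF143 and THAP11, which 8.46% held. A second annotated start of *MEN1* had 1 ACTACA match. The 3 windows had 25, 31 and 23 CG dinucleotides, against a median of 14 over all promoters. Windows of the other matched genes were above that median too, at 33 and 29 for *PSIP1*, 29 for *KDM6A* and 18 for *RBBP5*. The windows vary within a gene, and the counts do not show which start was used: the 4 annotated starts of *WDR5* had 6, 16, 31 and 45 CG dinucleotides and 0, 1, 3 and 5 GC boxes, and the second window of *MEN1* had 20 and 0.

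The libraries held 6966345 to 10380241 counts in the MLL1 experiment and 12278989 to 14232408 in the AF9 experiment. Of 12 erythroid markers, 11 had a mean of at least 1 TPM (counts per length of merged exons, scaled to a common total) in each of the 4 groups. Their summed level was 4411 to 6444 TPM in the controls of the MLL1 experiment and 3151 to 5036 TPM in MLL1 KD cells. In the AF9 experiment it was 36137 to 36513 TPM in controls and 25605 to 30589 TPM in KD cells. The fetal globin gene *HBG2* made up most of the sum there, at 24609 and 24462 TPM in controls and 19110 and 15656 TPM in KD cells. Of the 11 markers, 6 rose and 2 fell in AF9 KD cells, beside 14.4% of all genes higher and 14.6% lower. With offsets for GC content 2 rose and 4 fell, where 26.4% of all genes passed in either direction. The list median moved from 0.32 to -0.03 with the offsets. The alpha globin genes *HBA1* and *HBA2* rose by 1.15 and 1.22 on the log2 scale (adjusted p = 0.000431 and 0.000728, and 0.0705 and 0.0828 with GC offsets). *ALAS2*, the erythroid enzyme of heme synthesis, rose by 0.58 (adjusted p = 0.000605) and the fetal globin gene *HBG1* fell by 0.60 (adjusted p = 0.00178), and both passed with GC offsets too. The globin genes have near-identical copies, so their single values are uncertain. In MLL1 KD cells 0 of 11 passed in the test without a replicate block. With the replicate number as a block 0 rose and 7 fell (list median -0.39), beside 6.65% of all genes called higher and 6.94% lower. Without the block *ALAS2* had the lowest log2 fold change of the 11, -1.75. Its control and MLL1 KD libraries did not overlap, as was so for 17.7% of all genes. Of 6 megakaryocyte markers, 0 passed without the block, and with it 1 rose and 3 fell. The part of these shifts in the results below was not tested. In bulk RNA, fewer cells of a type and less RNA per cell cannot be told apart. Markers of T cells, B cells, monocytes, epithelial cells and fibroblasts had 1 or 2 of 3 genes at a mean of at least 1 TPM in each group. The fibroblast gene *COL1A1* reached that mean in MLL1 KD cells through replicate 3 alone, with 83 counts against 4 and 5 in replicates 1 and 2. *COL1A2* had 66 counts in that library, against 3 and 1. *CD2*, the 1 T cell marker tested, was at 5.17 to 7.27 CPM (counts scaled to library size with TMM factors) in controls and at 14.9 to 19.6 CPM in MLL1 KD cells, with no overlap (log2 fold change 1.49, SE 0.22, adjusted p = 0.0856, and 7.41e-05 with the block). *CD3D*, which defines T cells, had no counts in those 6 libraries, and the monocyte receptor gene *CD14* had none in the 4 libraries of the AF9 experiment. Of the monocyte markers, the integrin gene *ITGAM* rose in AF9 KD cells by 1.40 on the log2 scale (SE 0.36, adjusted p = 0.0114) and the lysozyme gene *LYZ* fell by 0.39 (SE 0.10, adjusted p = 0.0107). With GC offsets their adjusted p was 0.0200 and 0.0954, and *LYZ* was at -0.22.

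The targeted genes were measured first. *KMT2A* was at 1323, 1299.7 and 1258 CPM in the controls and at 813, 815 and 835 CPM in MLL1 KD cells, 63.5% of the control mean, and the groups did not overlap. The log2 fold change was -0.66 (SE 0.09), with an adjusted p of 0.0723 in edgeR's quasi-likelihood test and 3.49e-07 with the replicate number as a block. *MLLT3* was at 548 and 528 CPM in controls and at 107 and 92.6 CPM in AF9 KD cells, 18.6% of the control mean (log2 fold change -2.43, SE 0.11, adjusted p = 3.24e-08). In MLL1 KD cells *MLLT3* had a log2 fold change of -0.28 (adjusted p = 0.615, and 0.0175 with the block). In AF9 KD cells the log2 fold change of *KMT2A* was -0.32 (SE 0.09, adjusted p = 0.0200), and with offsets for GC content the adjusted p was 0.0664.

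In control cells the 10 genes spanned a wide range of levels per length. In the controls of the MLL1 experiment, *PSIP1* was highest at 395 ± 68.9 TPM (SD, n = 3), next to *HCFC1* at 336 ± 70.5 TPM, and the libraries of these 2 genes overlapped. *ASH2L* at 155 ± 6.38 TPM, *MEN1* at 89.3 ± 32.05 TPM, *WDR5* at 62.3 ± 10.3 TPM and *RBBP5* at 44.1 ± 6.91 TPM followed, with overlap only between *MEN1* and *WDR5*. *DPY30* at 27.8 ± 2.48 TPM overlapped *PAXIP1* at 20.7 ± 9.19 TPM, and *KDM6A* at 8.95 ± 1.48 TPM overlapped *HCFC2* at 7.32 ± 2.11 TPM, the lowest.

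The order differed in the controls of the AF9 experiment. There *PSIP1* was at 965 ± 40.5 TPM (SD, n = 2), *ASH2L* at 281 ± 15.2 TPM, *DPY30* at 71.7 ± 0.29 TPM and *RBBP5* at 68.3 ± 3.86 TPM. *WDR5* at 53.6 ± 4.86 TPM and *HCFC1* at 49.3 ± 8.72 TPM overlapped, followed by *MEN1* at 40.02 ± 2.62 TPM, *PAXIP1* at 14.7 ± 0.014 TPM, *HCFC2* at 9.62 ± 1.17 TPM and *KDM6A* at 6.03 ± 0.054 TPM. The tables were normalized separately, and levels were not tested between them. Which exons count toward the length mattered here: with the canonical transcript in place of merged exons, *DPY30* moved from 27.8 to 68.2 TPM and *KDM6A* from 8.95 to 25.4 TPM in the controls of the MLL1 experiment, while *HCFC1* moved from 336 to 211 TPM and *RBBP5* from 44.1 to 27.6 TPM. In the controls of the AF9 experiment *HCFC1* moved from 49.3 to 26.3 TPM and *RBBP5* from 68.3 to 36.2 TPM, and *MEN1* from rank 7 to rank 4.

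**Figure D1:**
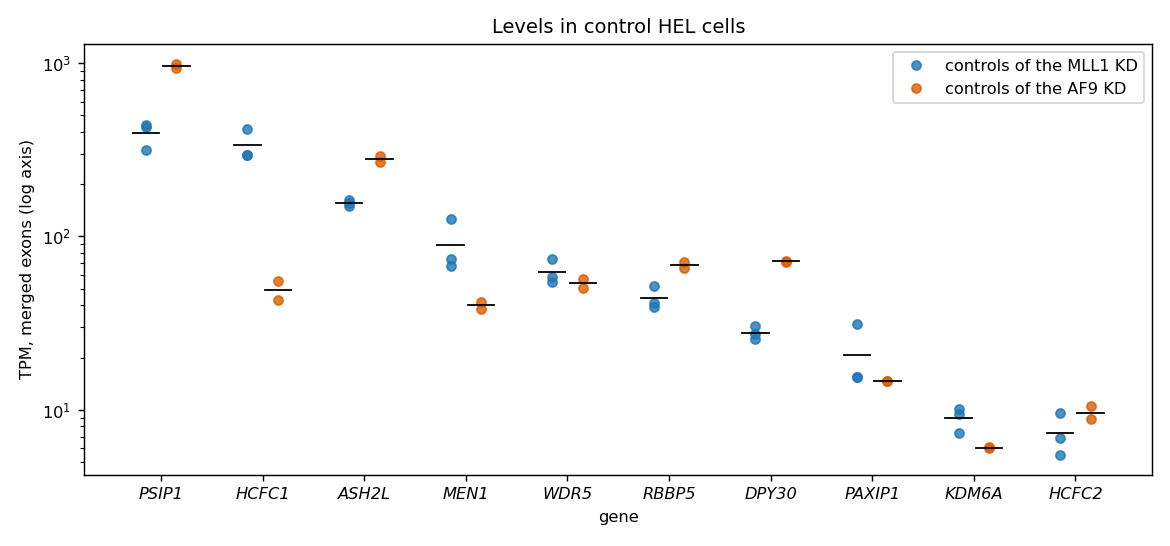
Levels of the 10 genes in control HEL cells, in TPM on a log axis, with 1 point per library and a bar at the mean of the 3 controls of the MLL1 experiment (blue) and the 2 of the AF9 experiment (orange). *PSIP1* was highest in both, at 395 and 965 TPM, and *HCFC1* stood at 336 TPM in one and 49.3 TPM in the other.

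MLL1 KD was compared with control to ask whether loss of the enzyme was accompanied by changed mRNA of its partners. None of the 10 genes passed the test without a block. In edgeR and in DESeq2, 0 of 10 had an adjusted p under 0.05 and 0 of 10 an unadjusted p under 0.05. The targeted *KMT2A* did not pass this edgeR test either (log2 fold change -0.66, adjusted p = 0.0723). Missing the threshold therefore does not show that a gene was unchanged. Over all 14393 genes tested, 9 passed the adjusted threshold together with a fold change of 1.5 (0.0625%), 0.0278% higher and 0.0347% lower, and 1435 had an unadjusted p under 0.05. The groups overlapped for all 10 genes, while over all genes 17.7% showed no overlap. The median log2 fold change of the 10 was 0.04, beside 0.01 over all genes.

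Replicate 1 stood apart from replicates 2 and 3 in both groups of the MLL1 experiment, and for several of the genes that gap exceeded the difference between KD and control. *PAXIP1* was at 76.2, 39.5 and 39.2 CPM in controls and at 78.6, 41.9 and 36.1 CPM in MLL1 KD cells, so that the first library of each group was well above the others (log2 fold change 0.02, SE 0.37, adjusted p = 0.993). *MEN1* was at 162, 100.2 and 90.4 CPM in controls and at 149, 84.8 and 90.9 CPM in KD cells (log2 fold change -0.12, SE 0.29, adjusted p = 0.950). *HCFC1* was at 943, 701 and 699 CPM in controls and at 1005, 688 and 735 CPM in KD cells (log2 fold change 0.05, SE 0.18, adjusted p = 0.968). All 3 genes were highest in replicate 1.

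*PSIP1* and *KDM6A* had the opposite pattern, lowest in replicate 1. *PSIP1* was at 534, 761 and 781 CPM in controls and at 416, 772 and 794 CPM in KD cells (log2 fold change -0.07, SE 0.26, adjusted p = 0.969). *KDM6A* was at 50.8, 74.6 and 68.4 CPM in controls and at 53.1, 77.3 and 73.7 CPM in KD cells (log2 fold change 0.07, SE 0.20, adjusted p = 0.955). Pair by pair, *PSIP1* in KD cells stood 0.36 below its control on the log2 scale in replicate 1 and 0.02 above it in replicates 2 and 3. The counts of *PSIP1* do not separate the long p75 form, which binds menin, from the short p52 form.

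Since same-numbered libraries deviated together, replicate 1 most, the fit was repeated with the replicate number as a block, and 1 of 10 genes then passed. *HCFC2* was at 9.18, 17.0 and 12.1 CPM in controls and at 16.6, 24.7 and 14.5 CPM in MLL1 KD cells. It was higher in KD in 3 of 3 pairs of same-numbered libraries, although the groups overlapped. The values do not separate numbers 2 and 3, so this count and the block rest on the numbering: control 2 (17.0 CPM) stood above KD 3 (14.5 CPM). The log2 fold change was 0.54 (SE 0.30, adjusted p = 0.620), and with the block 0.54 (SE 0.17, adjusted p = 0.0419), where 6.65% of all genes were called higher. These values rested on 71 to 174 counts per library. With GC offsets and the block together the adjusted p was 0.0548, and within replicates 2 and 3 alone it was 0.123 (log2 fold change 0.41).

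Of the subunits that stimulate the SET domain, *ASH2L* was the lowest in KD relative to control. Its levels were 212, 232 and 240.2 CPM in controls and 174, 202 and 215 CPM in KD cells, lower in 3 of 3 pairs with overlap between the groups. The log2 fold change was -0.21 (SE 0.12, adjusted p = 0.650), and the adjusted p was 0.0603 with the block. Within replicates 2 and 3 alone *ASH2L* fell by 0.18 on the log2 scale (SE 0.06, adjusted p = 0.0155), where 9.01% of all genes were called lower.

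The other subunits of that module were near their controls. *WDR5*, a beta-propeller protein that holds the enzyme to the module, was at 67.5, 55.8 and 52.2 CPM in controls and at 72.1, 51.7 and 60.0 CPM in KD cells. *RBBP5*, which joins WDR5 to ASH2L, was at 57.4, 48.4 and 44.9 CPM in controls and at 66.6, 49.3 and 53.1 CPM in KD cells. *DPY30*, a small protein that binds ASH2L as a dimer, was at 20.8, 18.4 and 19.5 CPM in controls and at 20.4, 18.5 and 19.4 CPM in KD cells. Their log2 fold changes were 0.07 (SE 0.17), 0.17 (SE 0.17) and -0.01 (SE 0.16), with adjusted p between 0.831 and 0.990, and *DPY30* had the smallest spread of the 3 genes between replicates.

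**Figure D2:**
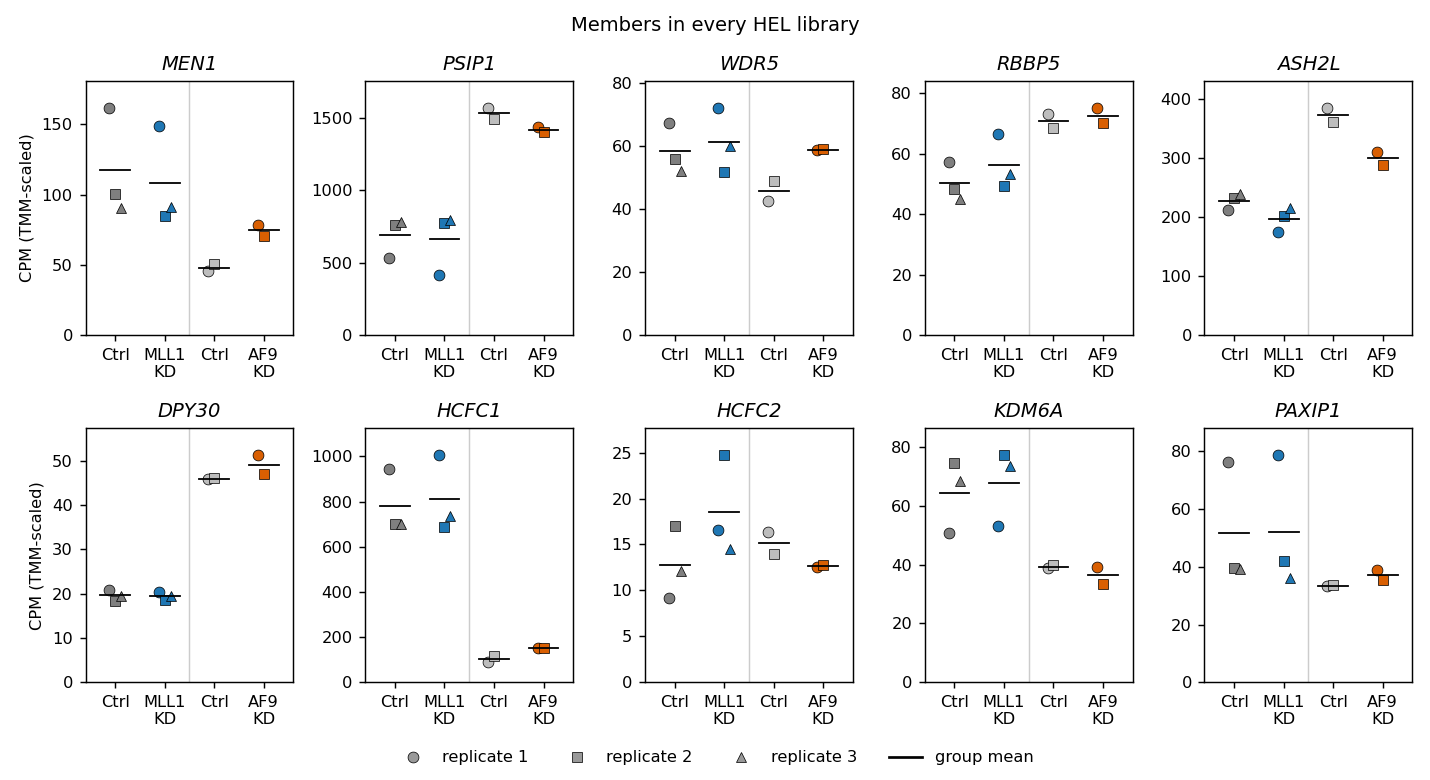
CPM of each gene in every library, with 1 panel per gene, its axis from 0, a marker shape for each replicate number and a bar at the group mean. In the MLL1 experiment replicate 1 is high for *MEN1*, *HCFC1* and *PAXIP1* and low for *PSIP1* and *KDM6A* in control and KD alike, and in the AF9 experiment *MEN1*, *HCFC1* and *WDR5* lie above and *ASH2L* below their controls.

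AF9 KD was compared with control in the same way. AF9 is a reader of histone acylation in the super elongation complex and DOT1L complexes and is not a COMPASS subunit. The paper reports that precipitating AF9 from HEL nuclear extract also recovered WDR5, ASH2L, RBBP5, DPY30, menin and LEDGF, but not MLL1. In AF9 KD cells the mRNA of 4 of 10 genes changed: *MEN1*, *HCFC1* and *WDR5* rose and *ASH2L* fell. Over all 13331 genes, 14.4% were higher and 14.6% lower at an adjusted p under 0.05, and the 4 genes are to be read against that background. With the fold change of at least 1.5 added, 1 of 10 genes (*MEN1*) was called, beside 13.1% of all genes in either direction and 8.02% higher. In CPM the groups did not overlap for 8 of the 10 genes, 5 above and 3 below control, while 66.0% of all genes showed no overlap. In TPM the groups of *PSIP1* and *HCFC2* did overlap, and those of *RBBP5* did not. The median log2 fold change of the 10 was 0.07, beside 0.01 over all genes. Of the 1744 genes called with the fold, 61.3% were higher, against 76.4% with scaling by total counts and 46.6% with GC offsets.

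*MEN1* (chromosome 11, 64803510 to 64811294, minus strand) rose from 45.5 and 50.6 CPM to 78.4 and 70.7 CPM, 155% of the control mean. Both KD libraries stood above both controls, and the log2 fold change was 0.64 (SE 0.11, adjusted p = 0.000916). It stayed past the adjusted threshold without any 1 library, but the fold was under 1.5 without control 1 or without KD 1 (log2 fold change 0.56 in each case).

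*HCFC1* (chromosome X, 153947557 to 153971818, minus strand) rose from 90.8 and 118 CPM to 154 and 152 CPM, 146% of the control mean, with a log2 fold change of 0.55 (SE 0.12, adjusted p = 0.00349). *WDR5* (chromosome 9, 134135365 to 134159968, plus strand) rose from 42.6 and 49.0 CPM to 58.8 and 59.2 CPM, 129% of the control mean, with a log2 fold change of 0.37 (SE 0.11, adjusted p = 0.0236). For both, control 1 was the lowest library, and without it the adjusted p was 0.125 for *HCFC1* and 0.345 for *WDR5*. In DESeq2 the adjusted p of *WDR5* was 0.0532.

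*ASH2L* (chromosome 8, 38105493 to 38144076, plus strand) fell from 385 and 361 CPM to 312 and 289 CPM, 80.4% of the control mean. Both KD libraries were below both controls, and the log2 fold change was -0.31 (SE 0.10, adjusted p = 0.0241). The adjusted p was 0.345 without control 1 and 0.123 without control 2, and 0.0795 with scaling by total counts.

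The remaining 6 genes did not pass the test. *HCFC2* was at 16.3 and 13.9 CPM in controls and at 12.5 and 12.7 CPM in KD cells, below control in both (log2 fold change -0.26, SE 0.16, adjusted p = 0.230). *PSIP1* was at 1566 and 1495 CPM in controls and at 1434 and 1404 CPM in KD cells (log2 fold change -0.11, adjusted p = 0.449). *PAXIP1* was at 33.2 and 33.6 CPM in controls and at 38.9 and 35.3 CPM in KD cells (log2 fold change 0.15, adjusted p = 0.366). In CPM these 3 genes had no overlap between groups, as did *DPY30*, with 45.8 and 46.1 CPM in controls and 51.2 and 47.0 CPM in KD cells (log2 fold change 0.10, adjusted p = 0.540). *RBBP5* was at 73.1 and 68.4 CPM in controls and 75.0 and 70.1 CPM in KD cells, and *KDM6A* at 38.8 and 39.8 CPM in controls and 39.3 and 33.6 CPM in KD cells. For these 2 genes the groups overlapped in CPM, with log2 fold changes of 0.04 (adjusted p = 0.818) and -0.11 (adjusted p = 0.525).

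The 3 genes that rose in AF9 KD cells were also the 3 of the 10 richest in GC. Their merged exons held 57.6% (*WDR5*), 59.8% (*MEN1*) and 61.3% (*HCFC1*) GC, against 36.8% (*KDM6A*) to 46.2% (*ASH2L*) for the other 7 genes. Across the 13331 genes tested, the AF9 KD log2 fold change rose with exon GC content (Spearman's rho 0.480, across genes, which are not independent replicates), and across the 14393 genes of the MLL1 experiment rho was -0.069. With offsets for GC content, where 26.4% of all genes passed, the log2 fold change was 0.28 for *MEN1* (adjusted p = 0.0681), 0.12 for *HCFC1* (adjusted p = 0.364) and 0.11 for *WDR5* (adjusted p = 0.385). *ASH2L* fell with the offsets too, by 0.24 on the log2 scale (adjusted p = 0.0364). With GC offsets and the replicate block together, *MEN1* passed an adjusted p of 0.05, and *HCFC1* and *WDR5* did not. In that fit 1959 of the 13331 genes were called higher. Whether the relation with GC content arose in the cells or in library preparation was not tested.

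**Figure D3:**
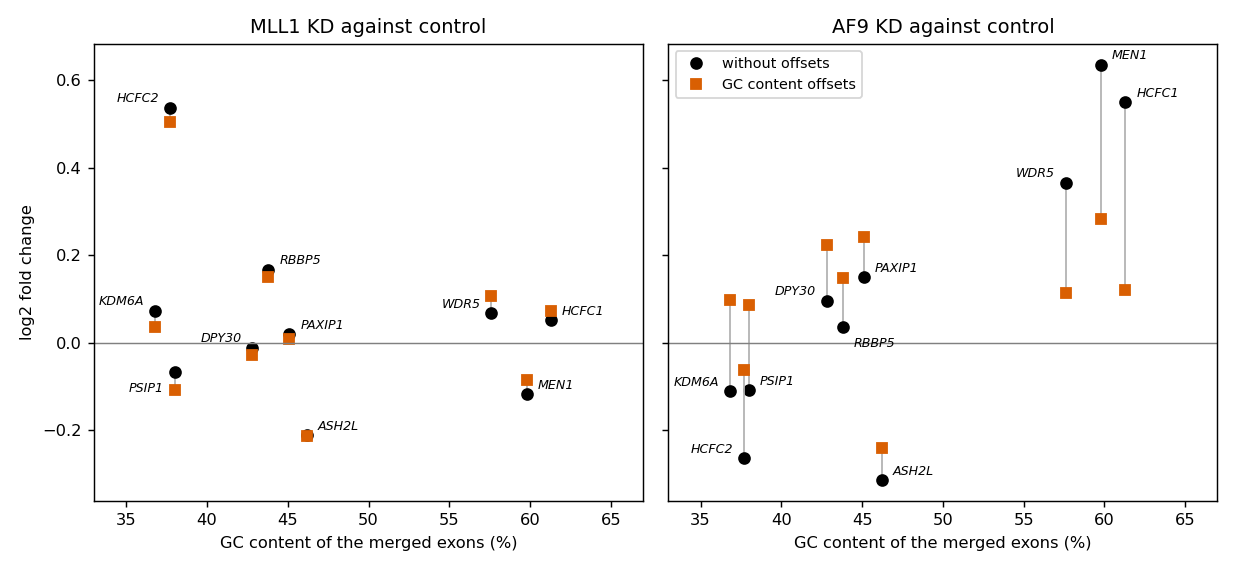
Log2 fold change of each gene against the GC content of its merged exons (%), in MLL1 KD (left) and AF9 KD (right), without offsets (black circles) and with GC offsets (orange squares). In AF9 KD the 3 genes above 57% GC lie at 0.37 to 0.64 without offsets and at 0.11 to 0.28 with them, while in MLL1 KD the offsets move the genes little.

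The effects of the KDs were set against each other in 1 model of all 10 libraries, as the MLL1 KD effect minus the AF9 KD effect. The KDs had separate controls. Without a block, 0 of 10 genes differed at an adjusted p under 0.05 and 0 of 10 at an unadjusted p under 0.05, beside 1.35% of the 12729 genes at the adjusted threshold. With the replicate block, 3 of 10 differed, near the background of 24.4% of all genes. *MEN1* differed by -0.73 on the log2 scale (SE 0.14, adjusted p = 0.0013), *HCFC1* by -0.50 (SE 0.12, adjusted p = 0.00654) and *HCFC2* by 0.82 (SE 0.24, adjusted p = 0.0190). With GC offsets and the block together, an alternative added after the data were seen, these differences were -0.36 (adjusted p = 0.0876), -0.05 (adjusted p = 0.828) and 0.58 (adjusted p = 0.116). Scaling by total counts moved the median difference of all genes to -0.11.

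**Figure D4:**
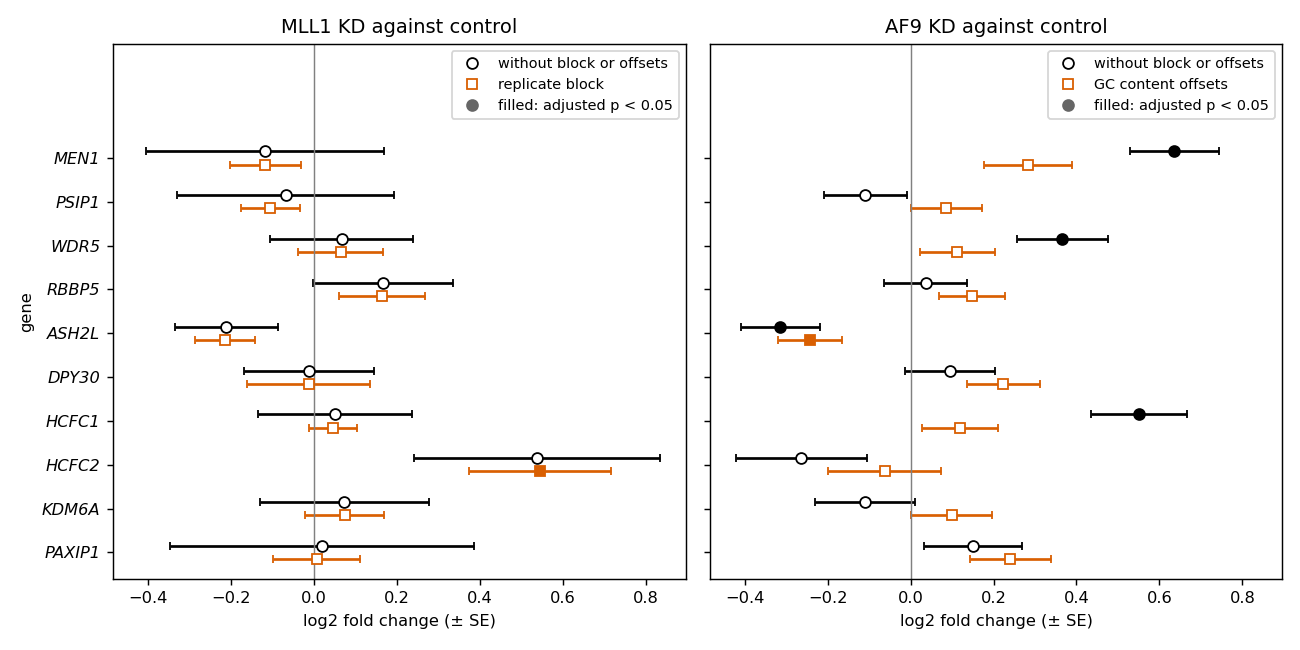
Log2 fold change ± SE of each gene in MLL1 KD without and with the replicate block (left) and in AF9 KD without and with GC content offsets (right), with filled symbols at an adjusted p under 0.05. *HCFC2* alone is filled on the left, with the block, and on the right *MEN1*, *HCFC1*, *WDR5* and *ASH2L* are filled without offsets and *ASH2L* alone with them.

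The catalytic subunits with which these proteins assemble are *KMT2A* to *KMT2D*, *SETD1A* and *SETD1B*. In AF9 KD cells 2 of 6 rose and 2 of 6 fell, beside the 14.4% and 14.6% of all genes. With GC offsets the adjusted p of *SETD1B* was 0.203 and that of *SETD1A* 0.949. *SETD1B* rose by 0.65 on the log2 scale (SE 0.12, adjusted p = 0.00169) and *SETD1A* by 0.55 (SE 0.13, adjusted p = 0.00569), both methyltransferases of the SET1 complexes. *KMT2C*, which encodes MLL3, fell by 0.60 (SE 0.10, adjusted p = 0.000677), and *KMT2A* fell as given above. *KMT2B* and *KMT2D* had log2 fold changes of 0.31 (adjusted p = 0.0994) and 0.24 (adjusted p = 0.116). With GC offsets 1 of 6, *KMT2C*, passed, with a log2 fold change of -0.42 (adjusted p = 0.00455).

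In MLL1 KD cells 0 of 6 catalytic subunits passed without the block. With it 4 of 6 rose, beside 6.65% of all genes, *SETD1B* by 0.37 (adjusted p = 0.00342), *KMT2B* by 0.30 (adjusted p = 0.00856), *SETD1A* by 0.26 (adjusted p = 0.0471) and *KMT2C* by 0.24 (adjusted p = 0.0258), and *KMT2A* fell. *KMT2D* had a log2 fold change of -0.09 with the block (adjusted p = 0.299). *KMT2C* was the 1 catalytic subunit whose effects differed between the KDs without a block, by 0.86 (SE 0.15, adjusted p = 0.0352), and with GC offsets the adjusted p of that difference was 0.100.

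Other genes of these pathways were read from lists. The counts in AF9 KD cells stand beside 14.4% of all genes higher and 14.6% lower, and with so few genes per list nothing is read from them. Of 7 genes for subunits found in some COMPASS-like complexes or, for *TASP1*, for the protease that cleaves MLL1, 1 rose and 0 fell. *CXXC1*, the CpG-binding subunit of the SET1 complexes, rose by 0.47 (adjusted p = 0.00784, and 0.419 at a log2 fold change of 0.10 with GC offsets), and the list median was 0.15, beside 0.01 over all genes. Of 10 partners and paralogs of menin and LEDGF, 1 rose and 1 fell. *HDGFL2*, the LEDGF paralog, rose by 0.46 (adjusted p = 0.0129, and 0.695 with GC offsets), and *HDGFL3*, of the same family, fell by 0.37 (adjusted p = 0.0188, and 0.0593 with GC offsets). Of 12 partners of HCF-1, 2 rose and 1 fell, namely the deubiquitinase gene *BAP1* by 0.39 (adjusted p = 0.00784, and 0.313 at 0.11 with GC offsets), the deacetylase gene *HDAC1* by 0.27 (adjusted p = 0.0400) and, downward, the promoter factor gene *ZNF143* (log2 fold change -0.42, adjusted p = 0.0234). The medians of these 2 lists were -0.08 and 0.05.

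Of 6 H3 lysine 4 demethylases and partners, 0 rose and 1 fell in AF9 KD cells, *KDM5B*, by 0.54 (adjusted p = 0.00107, and 0.00245 with GC offsets), with a list median of -0.04. In MLL1 KD cells no gene of these lists passed without the block (0 of 7, 0 of 10, 0 of 12 and 0 of 6), with medians of 0.06, 0.15, 0.03 and 0.09, beside 0.01 over all genes. With the block 1, 2, 2 and 1 genes were higher and 0, 0, 0 and 1 lower.

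For 3 of the genes the share of transcripts within a paralog pair was computed from TPM, with no adjustment for GC content. *HCFC1* made up 83.4 ± 4.11% of *HCFC1* plus *HCFC2* in controls of the AF9 experiment and 90.0 ± 0.15% in AF9 KD cells (SD, n = 2 each), with no overlap, at 80.5% and 86.3% against 90.1% and 89.9%. An exact permutation test gave p = 0.333, two-sided, the smallest that 2 against 2 libraries allow. The merged exons of *HCFC1* held 61.3% GC and those of *HCFC2* 37.7%, and the part of GC content in this shift was not tested. In the MLL1 experiment the share was 97.8 ± 0.94% in controls and 96.9 ± 1.30% in KD cells (n = 3 each, exact permutation p = 0.500).

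*PSIP1* made up 96.3 ± 0.36% of *PSIP1* plus *HDGFL2* in controls and 94.6 ± 0.72% in AF9 KD cells (exact permutation p = 0.333, n = 2 each), and 92.8 ± 1.58% and 91.6 ± 3.56% in the MLL1 experiment (exact permutation p = 0.7, n = 3 each). *KDM6A* made up 9.44 ± 0.35% of *KDM6A* plus *KDM6B*, its paralog, in controls and 8.39 ± 0.63% in MLL1 KD cells, with no overlap (exact permutation p = 0.100, n = 3 each, the smallest that 3 against 3 allow). In the AF9 experiment its share was 25.5 ± 0.85% and 28.2 ± 4.14% (exact permutation p = 0.667, n = 2 each). Its level relative to *KDM6B* depended on the length used: with canonical transcripts the shares were 58.6% and 61.8% in the AF9 experiment and 30.2% and 27.5% in the MLL1 experiment. These 6 exact tests form 1 family, with Benjamini-Hochberg adjusted values of 0.6 to 0.7, and with so few libraries none could fall under 0.05.

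Likeness across libraries was described for each gene as the highest Pearson correlation of log2 CPM, centered on each experiment's mean, over the 10 libraries and the 12729 genes tested in both tables. *MEN1* was most like *TCOF1* (r = 0.991), *PSIP1* most like *PDCD4* (r = 0.996), *WDR5* most like *CD99* (r = 0.982), *RBBP5* most like *ASXL2* (r = 0.978) and *ASH2L* most like *RPS6KC1* (r = 0.980). *DPY30* was most like *RIC8A* (r = 0.949), *HCFC1* most like *HSPBP1* (r = 0.990), *HCFC2* most like *ZNF573* (r = 0.955), *KDM6A* most like *CDC37L1-DT* (r = 0.993) and *PAXIP1* most like *EXOSC7* (r = 0.992). Among the 10 genes, *HCFC1* and *WDR5* had the highest r (0.971) and *PAXIP1* and *PSIP1* the lowest (-0.953). The points share libraries, depth and the gap between replicate 1 and the others in the MLL1 experiment.

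Reads that could come from copies bear on some of these counts. Of the distinct 31-base stretches in annotated transcripts, 16.4% of those of *DPY30* and 10.5% of those of *PSIP1* also occurred in another gene, for *PSIP1* most often the pseudogene *PSIP1P1*, so that the values of these 2 genes are uncertain to that extent. The share was 6.27% for *RBBP5*, 4.11% for *KDM6A*, 3.84% for *WDR5* and under 1% for the other 5 genes. Of the targeted genes, *KMT2A* shared 21.8%, most often with ENSG00000285827, so its values are uncertain to that extent too, and *MLLT3* shared 0.481%.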

How the data were processed

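RNA-seq of polyA-selected, stranded libraries of HEL cells was analysed. Per the labels, the study's methods and the submitters' processing notes, the authors trimmed reads with fastp 0.13.1, aligned them to hg38 with HISAT2 2.1.0 and counted them per gene with featureCounts 1.6.1. The authors deposited raw counts, 1 table per experiment, with no normalization. GENCODE v44 annotated 92.4% of the symbols, 735 of them through a RefSeq synonym. Genes with a mean of at least 1 TPM were tested with the edgeR 4.0.16 quasi-likelihood test (R 4.3.3), TMM factors and Benjamini-Hochberg adjustment over all genes tested. A gene was called at an adjusted p under 0.05, alone or with a fold change of at least 1.5. DESeq2 1.42.0 was an alternative. CPM used TMM-scaled library sizes, and TPM used merged exon lengths. GC offsets were lowess trends (span 0.3). In the MLL1 experiment deviations of same-numbered libraries correlated at 0.648, 0.326 and 0.352, all over the 0.1 set for pairing, and the block was fitted. Controls 2 and 3 correlated as well with KD 3 and 2 (0.369 and 0.359), so the values set replicate 1 apart and do not separate numbers 2 and 3. The members and lists were chosen with earlier results of these data known. Text names all members, the targets, all catalytic subunits, up to 4 passing genes with the smallest p per list and comparison, and each member's most alike gene. The scripts were tested on simulated data. The chromatin samples were not analysed here.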

Additional observations from a re-analysis of the deposited data

Results flagged for a closer look

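The values here are the MLL1 KD effect minus the AF9 KD effect on the log2 scale. Among the 10 genes, the targeted genes and the catalytic subunits, 7 genes differed between the KDs in a test of the difference itself. With the replicate block these were *MEN1* (-0.73, SE 0.14), *HCFC1* (-0.50, SE 0.12) and *HCFC2* (0.82, SE 0.24), and outside the 10 genes *KMT2A* (-0.32, SE 0.09) and *KMT2D* (-0.31, SE 0.10). With the block 24.4% of all genes differed, so 3 of 10 is near that background. None of these 5 differed without the block. The 2 others differed without it, *MLLT3*, which the AF9 shRNA targets (2.16, SE 0.22, adjusted p = 0.00694), and *KMT2C* (0.86, SE 0.15, adjusted p = 0.0352). Of the other lists, *ALAS2* alone differed without the block, by -2.32 (SE 0.33, adjusted p = 0.0222, and 0.0469 with GC offsets). Further list genes differed with the block and are not named here. In the groups of *MEN1*, the MLL1 KD libraries overlapped their controls and the AF9 KD libraries did not. All 3 differences among the 10 genes missed the threshold with GC offsets added to the block.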

How the results depend on the processing

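In MLL1 KD 0 of 10 passed an adjusted p of 0.05, 1 with the replicate block and 1 within replicates 2 and 3 alone. Over all genes 9 passed with the fold, against 679 with the block, 675 with the block and GC offsets, 232 and 213 with DESeq2 on the same or on all genes, 32 with no filter beyond 1 count, 696 within replicates 2 and 3, and 0 to 53 leaving out each library (53 without MLL1 KD replicate 1, otherwise 0). In AF9 KD, 1 of 10 passed with the fold, against 0 with GC offsets, with or without the block, 2 with total counts, 0 at a fold of 2 and 0 to 2 leaving out each library. At the adjusted p alone 4 passed, against 1 with GC offsets, 2 with GC offsets and the block, 3 with DESeq2 on the same or on all genes, 3 with total counts and 1 to 4 leaving out each library (1 without control replicate 1 and 3 without control replicate 2). Over all genes 1744 passed, against 1062 with GC offsets, 510 at a fold of 2 and 1051 to 1997 leaving out each library, the lowest without control replicate 1. Same-numbered AF9 libraries correlated at 0.156, over the 0.1 set for pairing. With 2 libraries per group both pairs give the same value by construction, so it does not show pairing. The replicate block left the 4 calls in place there, and in the test of the difference the block covered both experiments. For the difference, 0 of 10 passed, against 2 with the fold and 3 without it under the block. Over all genes 172 passed, against 1945 with the block, 1167 with the block and GC offsets, 52 with GC offsets and 1 to 932 leaving out each library (932 without MLL1 KD replicate 1).

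Directions reversed for genes near 0. In MLL1 KD these were *PSIP1* (0.018 within replicates 2 and 3) and *PAXIP1* (-0.021 there, and -0.0024 with GC offsets and the block), and leaving out each library gave -0.42 to 0.18 for *MEN1*, -0.23 to 0.18 for *PSIP1*, -0.066 to 0.18 for *WDR5*, -0.051 to 0.034 for *DPY30*, -0.13 to 0.21 for *HCFC1*, -0.074 to 0.22 for *KDM6A* and -0.41 to 0.41 for *PAXIP1*. In AF9 KD, GC offsets reversed *PSIP1* (0.086, with and without the block) and *KDM6A* (0.10, with and without the block), and leaving out each library gave -0.012 to 0.088 for *RBBP5* and -0.23 to 0.0025 for *KDM6A*. For the difference, *PSIP1* was -0.18 with GC offsets, -0.21 with the block added and -0.048 with total counts, and *KDM6A* -0.052 with GC offsets and -0.051 with the block added. Leaving out each library gave -0.11 to 0.30 for *PSIP1* and -0.54 to 0.27 for *PAXIP1*. The share of *KDM6A* in MLL1 KD minus control moved from -1.06 to -2.68 percentage points with canonical lengths, and its shares themselves from 9.44% and 8.39% to 30.2% and 27.5%. The causes were not tested. A lone library left in an arm was assumed to vary like the other group. The fits within replicates 2 and 3, on DESeq2 over all genes, and with GC offsets and the block for the difference were chosen after seeing the data. *HCFC2*, at 71 to 225 counts per library, is the gene that depth limits most.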
